A study of Mus musculus with 12 samples.

Results

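Haemoglobin and the red cell genes around it were followed in heart ventricle as 6 genes chosen by name: the alpha globin genes Hba-a1 and Hba-a2, the beta globin genes Hbb-bs and Hbb-bt, the erythroid haem enzyme gene Alas2 and the band 3 anion exchanger gene Slc4a1. They are 6 of the 78317 gene IDs counted, and all 6 had enough reads to be tested. RNA had been sequenced from bulk ventricle of 12 uninjured C57BL/6J offspring. In the group labelled paternal Injured P0, 6 animals had a father that had undergone cardiac cryoinjury, freezing of part of the heart, on postnatal day 1. In the group labelled paternal Uninjured P0, 6 animals had an uninjured father. Hearts were collected at 3 wpp from animals that the labels also call adult, and both terms are given as they stand. The labels name 3 males and 3 females with an injured father and 4 males and 2 females with an uninjured father, but not which library is which, nor the father or litter of each animal. Xist, a sex-linked gene high in female cells, had 14444, 12071 and 11656 counts in injured-sire replicates 12, 15 and 17. It had 12467 and 12618 in uninjured-sire replicates 19 and 21, 134 in injured-sire replicate 16 and at most 100 in the others. By these counts the libraries compared below were not balanced by sex. Siblings would make the p-values below too small, since these measure only the spread between these animals. The comparison set 5 libraries against 6, because the labels call replicate 16 of the injured-sire group an outlier that was left out downstream.

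Haemoglobin carries oxygen as a tetramer of paired alpha and beta chains, each holding a haem group. Its messages are made in red cell precursors of the marrow and spleen and persist in reticulocytes, the young red cells that enter the blood without a nucleus. Alas2 catalyses the first step of haem synthesis in those precursors, while Alas1 does so in all other cells. Slc4a1 exchanges chloride for bicarbonate across the red cell membrane and anchors it to the spectrin skeleton. Heart muscle stores oxygen with another globin, myoglobin. In whole tissue the red cell genes are commonly read as a measure of the blood left in it, and in bulk RNA fewer cells of a type and less RNA per cell cannot be told apart.

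The globin copies are so alike that many of their reads cannot be assigned, and reads mapping to several places were not counted. The coding sequences of Hba-a1 and Hba-a2, 429 bases each, differed at 1 position, C381T, and those of Hbb-bs and Hbb-bt, 444 bases each, also at 1 position, C417T. Positions count from the first base of the start codon, with the base of the first-named gene first. Both changes lie at the last base of a codon. The stretches around them, from GENCODE release M21 transcripts, are shown because they hold the whole difference between the coding parts of each pair, in capitals. They run from base 341 to 420 for the alpha genes and from 365 to 444 for the beta genes.
Hba-a1: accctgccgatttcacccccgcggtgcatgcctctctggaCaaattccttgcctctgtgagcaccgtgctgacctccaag
Hba-a2: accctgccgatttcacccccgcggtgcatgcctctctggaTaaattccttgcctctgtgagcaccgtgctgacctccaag
Hbb-bs: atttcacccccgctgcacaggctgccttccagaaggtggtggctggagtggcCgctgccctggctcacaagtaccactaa
Hbb-bt: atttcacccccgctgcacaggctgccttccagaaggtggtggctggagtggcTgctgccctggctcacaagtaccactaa

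Of all 50-base windows of the Hba-a1 transcript, 92.3% also occurred in Hba-a2, and 86.9% of those of Hba-a2 occurred in Hba-a1. The shares were 65.8% for Hbb-bs and 58.3% for Hbb-bt, each within the other. With 100-base windows they were 75.7%, 74.5%, 62.6% and 54.8%. No window of Alas2 or Slc4a1 was found in another gene at any of the 3 window lengths. The read length is not given in the sources used here, so these shares describe the sequences and are not a count of lost reads. The counted exons were longer than these transcripts for every gene but Hbb-bt. They held 812 against 699 bases for Hba-a1, 667 against 554 for Hba-a2 and 768 against 628 for Hbb-bs. Counted bases outside the transcripts were not compared. Counts of the 4 globins can hold only reads that touch a part where the copies differ, and levels of the copies are uncertain for that reason. No such overlap was found for Alas2 and Slc4a1.

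**Figure D1:**
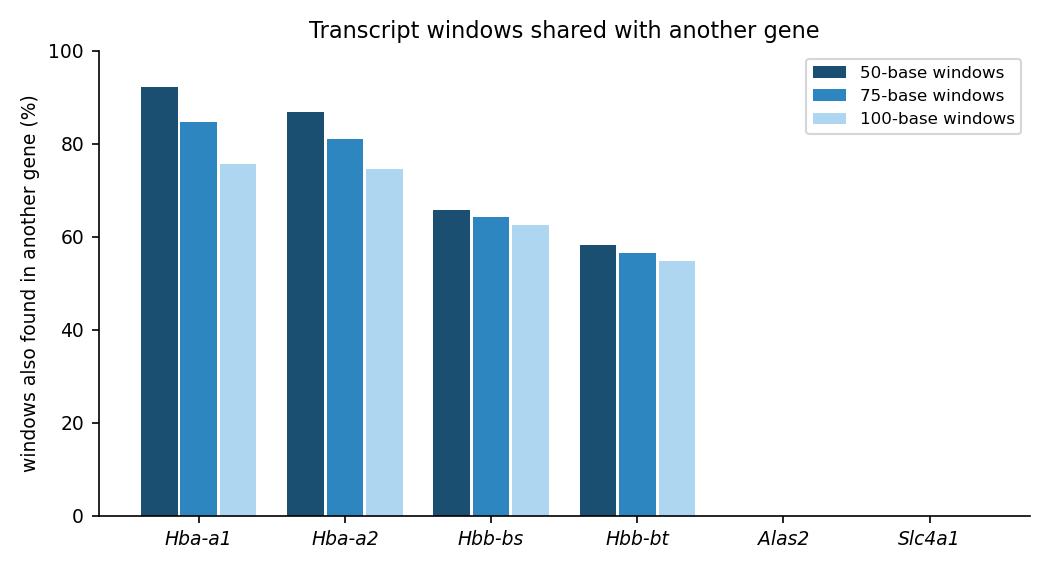
The share of windows of each transcript that also occurs in another gene (vertical axis, percent), for windows of 50, 75 and 100 bases (bars), in the 6 genes. Hba-a1 and Hba-a2 have the highest shares, 92.3% and 86.9% with 50-base windows, and Alas2 and Slc4a1 have none.

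On the GRCm39 build of the counted file, Hba-a1 (ENSMUSG00000069919) lies on the plus strand of chromosome 11 from 32233511 to 32234465 and Hba-a2 (ENSMUSG00000069917) from 32246489 to 32247298. Hbb-bs (ENSMUSG00000052305) lies on the minus strand of chromosome 7 from 103475741 to 103477303 and Hbb-bt (ENSMUSG00000073940) from 103461731 to 103463203. Alas2 (ENSMUSG00000025270) lies on the plus strand of chromosome X from 149330371 to 149353634, and Slc4a1 (ENSMUSG00000006574) on the minus strand of chromosome 11 from 102239650 to 102257029. Counts cover the exons of these genes. Gene models with reads overlap members on the opposite strand, ENSMUSG00000143602 at Hbb-bs with 174 counts over all 12 libraries and Apex2 at Alas2 with 2020, and counting was by strand.

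Levels were compared between genes per length, as counts scaled to a common library size (CPM), per kilobase of exon (per kb). Over the 11 libraries of the comparison Hbb-bs stood at 2011 ± 344 CPM per kb (SD, n = 11), the highest of the 6 genes. It was followed by Hba-a1 at 607 ± 127, Hba-a2 at 566 ± 104 and Hbb-bt at 487 ± 83.0 CPM per kb, neighbours that lie within each other's spread. Alas2 followed at 54.4 ± 8.55 and Slc4a1 at 3.47 ± 0.644 CPM per kb. The order among the globins holds only for the assigned reads, since unequal shares of their sequence can be assigned. For scale, the myoglobin gene Mb stood at 5382 CPM per kb and the myosin gene Myh6 at 5263 in offspring of uninjured males.

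None of the 6 genes passed the test between offspring of injured and uninjured males (quasi-likelihood F test in edgeR with p adjusted by Benjamini-Hochberg over 17130 genes, threshold 0.05), where 0.105% of all genes passed. That is 0 higher and 0 lower, against 0.0525% of all genes in each direction. Both adult alpha genes, both beta genes and Alas2 had negative fitted differences, and Slc4a1 a positive one. Negative values were 5 of 6 here, against 49.9% of all genes tested, and the median log2 fold change of the 6 was -0.18, against 0.0002 for all genes. These genes may share the same blood, which was not measured, and the globin pairs share sequence, so the 5 are not separate observations. At an unadjusted p below 0.05, Hbb-bs and Alas2 passed, 2 of 6 against 8.96% of all genes. Both were lower, against 4.68% of all genes, and 0 of 6 were higher, against 4.28%. The DESeq2 Wald test and limma voom also called 0 of 6, where they called 134 and 16 of all genes. So did edgeR with a sex-linked covariate, which called 14 of all genes. Without a filter on low counts edgeR called Alas2 alone of the 6, and 236 of all genes. The groups overlapped for all 6 genes, whereas 1.06% of all genes had groups that did not overlap.

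Hbb-bs, the major beta globin gene of the C57BL/6J strain, had 1034, 1487, 1418, 1569.9 and 1372 CPM in injured-sire replicates 12, 13, 14, 15 and 17. In the uninjured-sire group it ran from 1345 CPM in replicate 23 through a median of 1777 to 1945 CPM in replicate 21. Replicate 12 was the lowest of all libraries, and 4 of the 6 uninjured-sire libraries lay above every injured-sire library of the comparison. The means were 1376 ± 205 CPM (SD, n = 5) and 1685 ± 232 CPM (SD, n = 6). The fitted log2 difference was -0.29 ± 0.122 (SE), with an adjusted p of 0.505 in edgeR. Its 95% confidence interval ran from -0.56 to -0.02.

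Hbb-bt, the minor beta globin gene of the same haplotype, had 263, 325, 305, 399.8 and 313 CPM in the same 5 injured-sire libraries. It ran from 275 CPM through a median of 387 to 419 CPM in the uninjured-sire group. Injured-sire replicate 15 lay among the high uninjured-sire libraries, and replicates 20 and 23 of the uninjured-sire group lay with the low libraries. The fitted log2 difference was -0.16 ± 0.142 (SE), at an edgeR adjusted p of 0.812.

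Hba-a1 had 495, 471, 398, 462 and 465 CPM in the injured-sire libraries, a narrow range. The uninjured-sire libraries ran from 356 CPM in replicate 18 through a median of 484 to 676 CPM in replicate 19 and 692 CPM in replicate 22. They thus held both the lowest and the highest values of the comparison, at 522 ± 135 CPM (SD, n = 6), while the injured-sire mean was 458 ± 36.2 CPM (SD, n = 5). The fitted log2 difference was -0.19 ± 0.172 (SE), at an edgeR adjusted p of 0.82.

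Hba-a2, the second alpha gene, had 329.9, 397, 336, 392 and 324 CPM in the injured-sire libraries and 286 to 491 CPM, with a median of 399.9, in the uninjured-sire libraries. There the libraries lay apart, with replicates 19, 21 and 22 at 465 to 491 CPM and replicates 18, 20 and 23 at 286 to 335 CPM. The fitted log2 difference was -0.15 ± 0.154 (SE), at an edgeR adjusted p of 0.839.

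Alas2 had 98.9, 133, 118, 125 and 121 CPM in the injured-sire libraries. In the uninjured-sire group it ran from 104 CPM in replicate 23 through a median of 148 to 163 CPM in replicate 19. As with Hbb-bs, 4 of the 6 uninjured-sire libraries lay above every injured-sire library. The fitted log2 difference was -0.24 ± 0.107 (SE), at an edgeR adjusted p of 0.54. Without a filter on low counts, which raises the number of genes called from 18 to 236, it was -0.26 ± 0.0635 (SE), at an edgeR adjusted p of 0.0156.

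Slc4a1 had only 300 to 756 counts per library. It stood at 15.9, 16.5, 19.9, 17.9 and 18.9 CPM in the injured-sire libraries and at 9.80 CPM in uninjured-sire replicate 23, with a median of 16.4 and a highest value of 20.8 CPM in that group. Its log2 fold change, 0.13 ± 0.150 (SE, edgeR adjusted p = 0.858), was 0.03 without replicate 23. All injured-sire values lay inside the range of the uninjured-sire libraries.

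Replicate 16, outside the comparison and scaled together with all 12 libraries, had 555 CPM of Hba-a1, 433 of Hba-a2, 1624 of Hbb-bs, 373 of Hbb-bt, 117 of Alas2 and 20.2 of Slc4a1. All of these lay within the range of the uninjured-sire libraries. Its ratio of Hbb-bs to Alas2 counts, 13.9, was the highest of the 12 libraries.

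**Figure D2:**
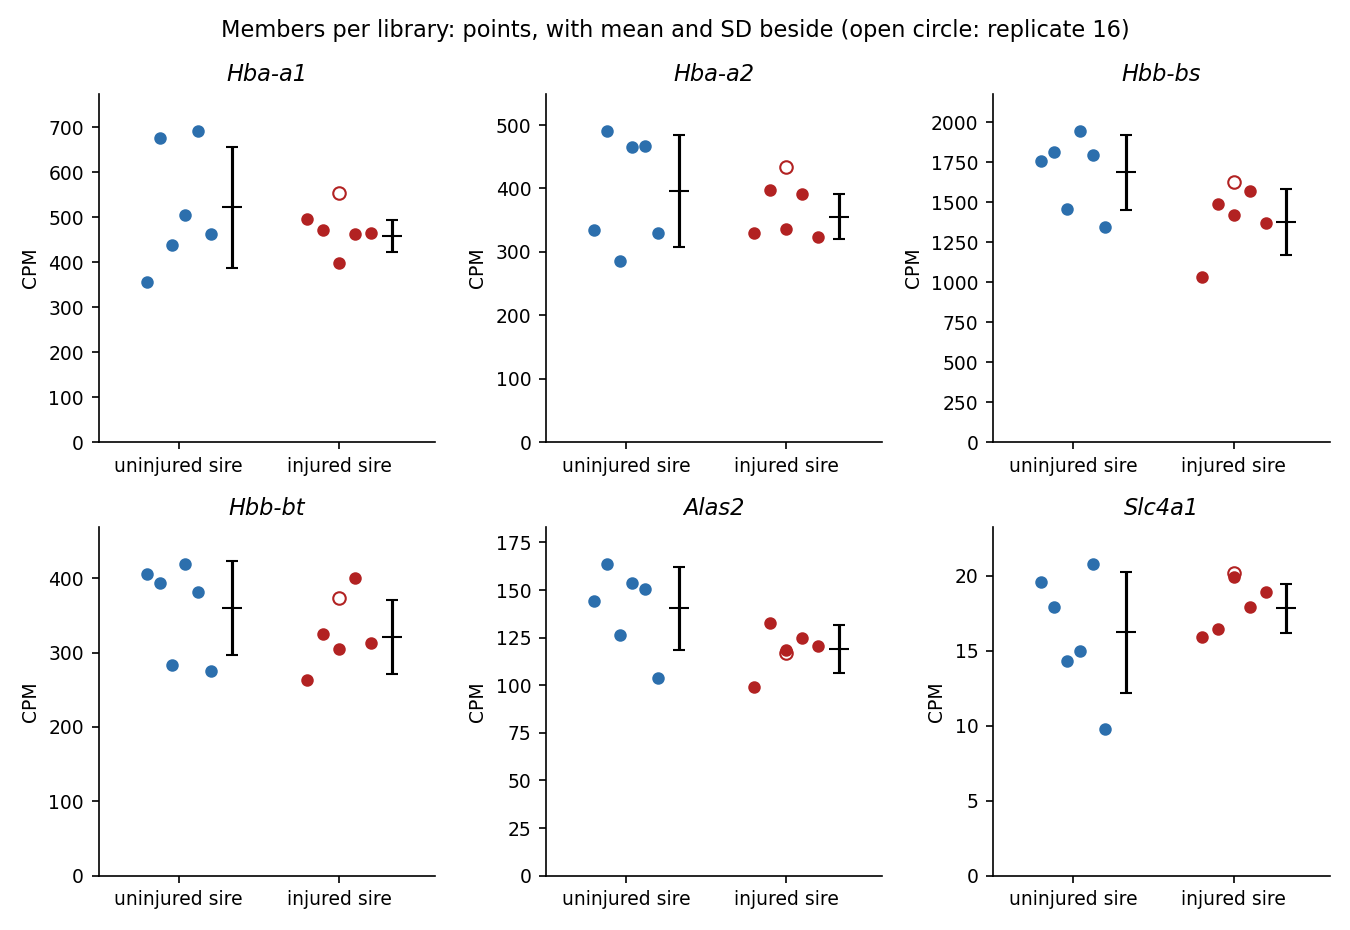
CPM of the 6 genes (vertical axes, starting at 0) in each library, by sire group, with the group mean and SD beside the points and replicate 16 as an open circle. The groups overlap in every panel, and the uninjured-sire libraries of Hba-a1 spread from 356 to 692 CPM.

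From animal to animal the beta globins and Alas2 moved together. Across the 11 libraries, in log2 CPM, Hbb-bs and Alas2 had Pearson's r = 0.93 (permutation p = 1e-05, the smallest that the permutations can give, adjusted p = 0.00015 over 15 pairs) and Spearman's rho = 0.95 (permutation, adjusted p = 0.00045). Hbb-bs and Hbb-bt had r = 0.89 (permutation p = 5e-05, adjusted p = 0.000375) and rho = 0.89 (permutation, adjusted p = 0.00405), although they share sequence. Hbb-bt and Alas2 had r = 0.85 (permutation p = 0.00111, adjusted p = 0.00555) and rho = 0.79 (permutation, adjusted p = 0.0229). Without the 2 libraries farthest from the median these r were 0.93, 0.87 and 0.81. In the 6 uninjured-sire libraries alone they were 0.94, 0.97 and 0.90. The 5 injured-sire libraries are too few for a correlation of their own, and over deviations from each group's mean the r were 0.91, 0.92 and 0.84.

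The alpha genes had lower values, and the difference between correlations was not tested. Hba-a2 had r = 0.68 with Hbb-bs, 0.73 with Hbb-bt and 0.73 with Alas2 (permutation, adjusted p = 0.041, 0.0382 and 0.0368), and rho of 0.78, 0.64 and 0.72 (permutation, adjusted p = 0.0229, 0.1 and 0.0493). Without uninjured-sire replicates 19 and 22, the farthest from the median, the r were 0.56, 0.68 and 0.54 (permutation p = 0.118, 0.0347 and 0.138, n = 9), so those with Hbb-bs and Alas2 did not pass without these libraries. Over deviations from the group means of all 11 libraries they were 0.68, 0.70 and 0.72. Hba-a1 had r = 0.29 with Hbb-bs (permutation p = 0.384, adjusted p = 0.48; rho = 0.40, adjusted p = 0.374) and r = -0.26 without the same 2 libraries. Hba-a1 and Hba-a2 had r = 0.75 (permutation p = 0.00692, adjusted p = 0.0259; rho = 0.62, adjusted p = 0.1), and 0.41 without them (permutation p = 0.267, n = 9), where it did not pass, and 0.73 over deviations from the group means.

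Slc4a1 did not pass with any of the other 5 genes over the 11 libraries, its highest r being 0.48, with Hbb-bt (permutation p = 0.123, adjusted p = 0.231). In the 6 uninjured-sire libraries alone its r was 0.76 with Hbb-bs and 0.85 with Alas2 (permutation p = 0.075 and 0.0403, not adjusted). The rho there were lower, at 0.49 and 0.54. Replicate 23 was the lowest of these libraries for Slc4a1, Hbb-bs and Alas2 alike, and its part in these r was not tested. Over deviations from the group means the r were 0.61 and 0.75. The difference between these values and the r over 11 libraries was not tested.

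**Figure D3:**
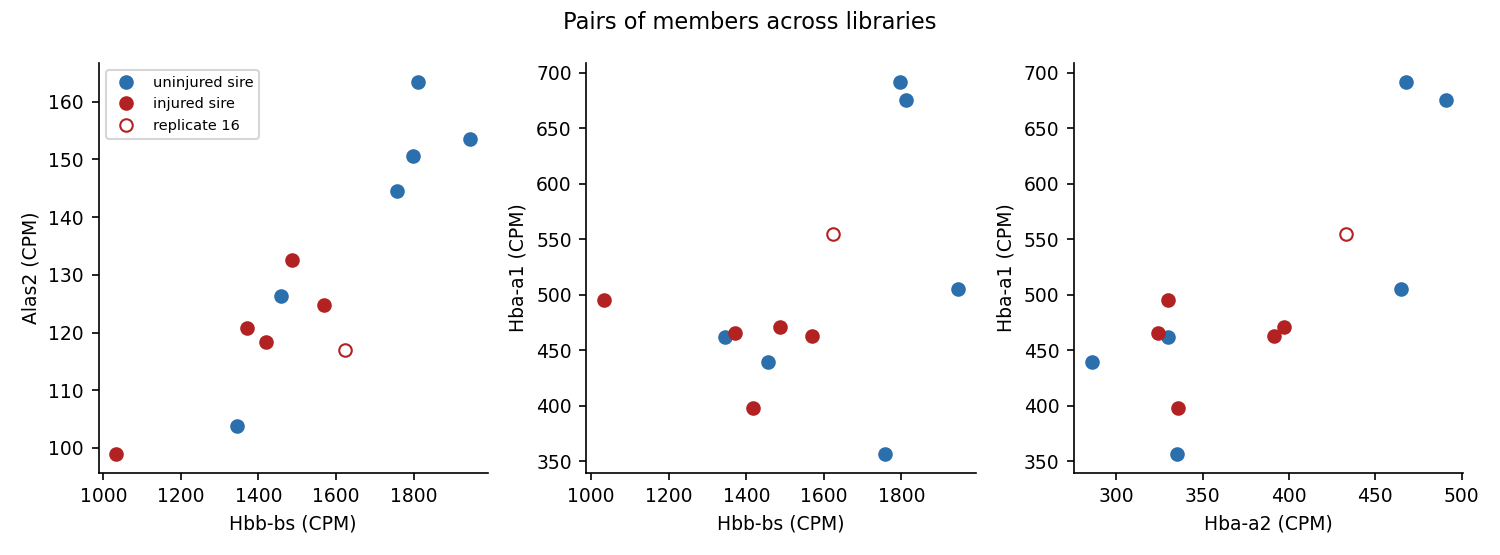
Pairs of genes across libraries in CPM on both axes (which do not start at 0), with uninjured-sire libraries in blue, injured-sire libraries in red and replicate 16 as an open circle. Alas2 is higher where Hbb-bs is higher (r = 0.93 in log2 CPM), while Hba-a1 has r = 0.29 with Hbb-bs and its 2 highest libraries stand apart in the plots of Hba-a1.

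Ratios of counts within a library do not depend on how the libraries were scaled. Hbb-bs had 4.52 ± 0.368 times the counts of Hbb-bt (SD, n = 11), from 3.93 to 5.13, at 4.29 ± 0.348 (SD, n = 5) in the injured-sire and 4.72 ± 0.274 (SD, n = 6) in the uninjured-sire libraries, which overlapped. Alas2 to Slc4a1 counts ran from 5.94 to 8.04 in the injured-sire and from 7.26 to 10.6 in the uninjured-sire libraries. No test was made on ratios. The ratio of Hbb-bs to Alas2 counts was 11.8 ± 0.762 (SD, n = 11), from 10.5 to 12.95, a coefficient of variation of 6.45%, although each gene alone varied by 17.1% and 15.7%. Hba-a1 to Hba-a2 ran from 1.06 in uninjured-sire replicate 18 to 1.54 in uninjured-sire replicate 20. Summed beta over summed alpha globin, per kb, ran from 1.56 in injured-sire replicate 12 to 3.04 in uninjured-sire replicate 18, with 2.05 ± 0.296 (SD, n = 5) and 2.25 ± 0.452 (SD, n = 6) in the groups. In a red cell the chains are made in near balance, and the measured ratio is one of assigned reads only.

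All 6 genes varied more between libraries than most genes of like level. Their coefficients of variation over the 11 libraries were 15.7% to 21.0%. Among genes within 0.5 log2 CPM of each, the median was 6.39% to 6.88% for the globins and Alas2 and 11.3% for Slc4a1, and 93.75% to 98.9% of those genes varied less.

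The promoters of 5 of the 6 genes matched in RefSeq (GRCm38.p6). Those of Hbb-bs, Hbb-bt, Hba-a2 and Alas2 are shown, as the 120 bases before the RefSeq start, on the gene's strand. Capitals mark GATAA (the core read by GATA factors), CACCC (read by Klf1 and related factors), CCAAT, and ATATAA as a form of the TATA box, searched on both strands, and adjoining matches run together.
Hbb-bs, chr7:103827929-103828048, minus strand: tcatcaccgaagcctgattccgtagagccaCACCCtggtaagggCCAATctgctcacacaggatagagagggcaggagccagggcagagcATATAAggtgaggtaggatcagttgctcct
Hbb-bt, chr7:103813924-103814043, minus strand: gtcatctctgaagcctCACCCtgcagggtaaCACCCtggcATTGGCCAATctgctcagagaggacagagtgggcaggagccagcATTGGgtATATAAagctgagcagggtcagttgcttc
Hba-a2, chr11:32296372-32296491, plus strand: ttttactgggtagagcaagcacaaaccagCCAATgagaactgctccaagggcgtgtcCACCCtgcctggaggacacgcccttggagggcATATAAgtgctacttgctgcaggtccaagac
Alas2, chrX:150547297-150547416, plus strand: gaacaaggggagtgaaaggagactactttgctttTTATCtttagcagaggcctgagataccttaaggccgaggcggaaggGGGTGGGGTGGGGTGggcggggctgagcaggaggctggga

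In the 250 bases before the start, GATAA and CACCC occurred in all 5 matched promoters, Hba-a1 included, against 22.6% and 52.0% of 32851 promoters. CCAAT and ATATAA occurred in the 4 globin promoters and not in that of Alas2, against 33.8% and 9.1% of all. In the globin promoters GATAA lay farther upstream than the shown bases, from 178 to 209 bases before the start, while in Alas2 it lay 82 to 86 bases before it, on the opposite strand. Hba-a1 and Hba-a2 shared an unbroken run of 297 identical bases in windows of 300 around their starts. These are matches of letters and not measured binding.

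Globins of the embryo were at or near 0 counts. Hbb-bh1, Hbb-bh2 and Hba-x, globins of the yolk sac and embryo, had 0 counts in all 12 libraries, which allows up to 0.0713 to 0.0982 CPM per library for counting error only. Hbb-y had 2 counts in 1 library. The theta globin genes Hbq1a and Hbq1b had at most 13 and 27 counts. None of these 6 genes was tested.

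Genes that mark nucleated red cell precursors were also near 0. Gata1 and Klf1, the transcription factors that switch on the globin genes, had at most 11 and 9 counts per library, and the precursor gene Hemgn at most 21. Of the 9 counted genes among 10 regulators, 5 were tested, with 1 higher, 4 lower and a median of -0.11. The 5 were Nfe2 (0.89 ± 0.561, at 0.491 against 0.262 CPM), Lmo2 (-0.12 ± 0.0939), Tal1 (-0.11 ± 0.144), Epor and Zfpm1, as log2 fold changes with SE, and edgeR called none. Tal1 and Lmo2 are also made in endothelium.

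The haem pathway as a whole was split in sign. All 13 of its listed genes, Alas2 among them, were tested: 6 were higher and 7 lower (median log2 difference -0.01), and edgeR called 0 over all genes, with 1 at an unadjusted p below 0.05, which was Alas2. Uros (-0.15 ± 0.0748, SE), the fourth enzyme of the pathway, and Slc25a38 (-0.15 ± 0.0826, SE), the mitochondrial glycine carrier that feeds it, had the next smallest p. The housekeeping enzyme Alas1 had means of 265 ± 10.7 (SD, n = 5) and 247 ± 25.0 CPM (SD, n = 6), and ferrochelatase, Fech, at 135 ± 5.10 against 134 ± 12.5 CPM. Neither passed a correlation with Hbb-bs (Alas1 r = -0.08, permutation, adjusted p = 0.892, rho = 0.12; Fech r = 0.18, permutation, adjusted p = 0.892, rho = 0.24). Without the 2 libraries farthest in Hbb-bs the r of Fech was 0.80 (permutation p = 0.0126, n = 9, not adjusted) and that of Alas1 -0.29 (permutation p = 0.489, n = 9), so the value of Fech turns on injured-sire replicate 12 and uninjured-sire replicate 21.

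Of 14 membrane skeleton and surface genes, 13 were tested: 9 were higher and 4 lower, with a median of 0.04, and edgeR called 0, with 2 at an unadjusted p below 0.05. Among these was the ankyrin gene Ank1, with means of 354 ± 26.3 (SD, n = 5) and 385 ± 24.6 CPM (SD, n = 6) in offspring of injured and uninjured males. Several of these genes are made by heart muscle as well, such as Tmod1, which caps actin filaments in sarcomeres and stood at 127 CPM per kb in offspring of injured males, above Alas2. Over the 11 libraries the spectrin gene Sptb had r = -0.39 with Hbb-bs, given as a description.

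Of 20 genes of reticulocytes and late red cell precursors, 18 were tested: 9 were higher and 9 lower, with a median of -0.03, and edgeR called 0, with 1 at an unadjusted p below 0.05. This was Ube2l6, the interferon-induced conjugating enzyme for ISG15, with means of 23.2 ± 1.46 (SD, n = 5) and 29.5 ± 3.83 CPM (SD, n = 6), a log2 difference of -0.35 ± 0.0872 (SE) at an edgeR adjusted p of 0.154. Bpgm, which makes the 2,3-bisphosphoglycerate that lowers the oxygen affinity of haemoglobin, stood at 72.1 ± 7.92 against 80.8 ± 13.1 CPM. Bnip3l, the receptor by which reticulocytes clear their mitochondria, had -0.10 ± 0.0545 (SE) and Ypel4 -0.44 ± 0.246 (SE).

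**Figure D4:**
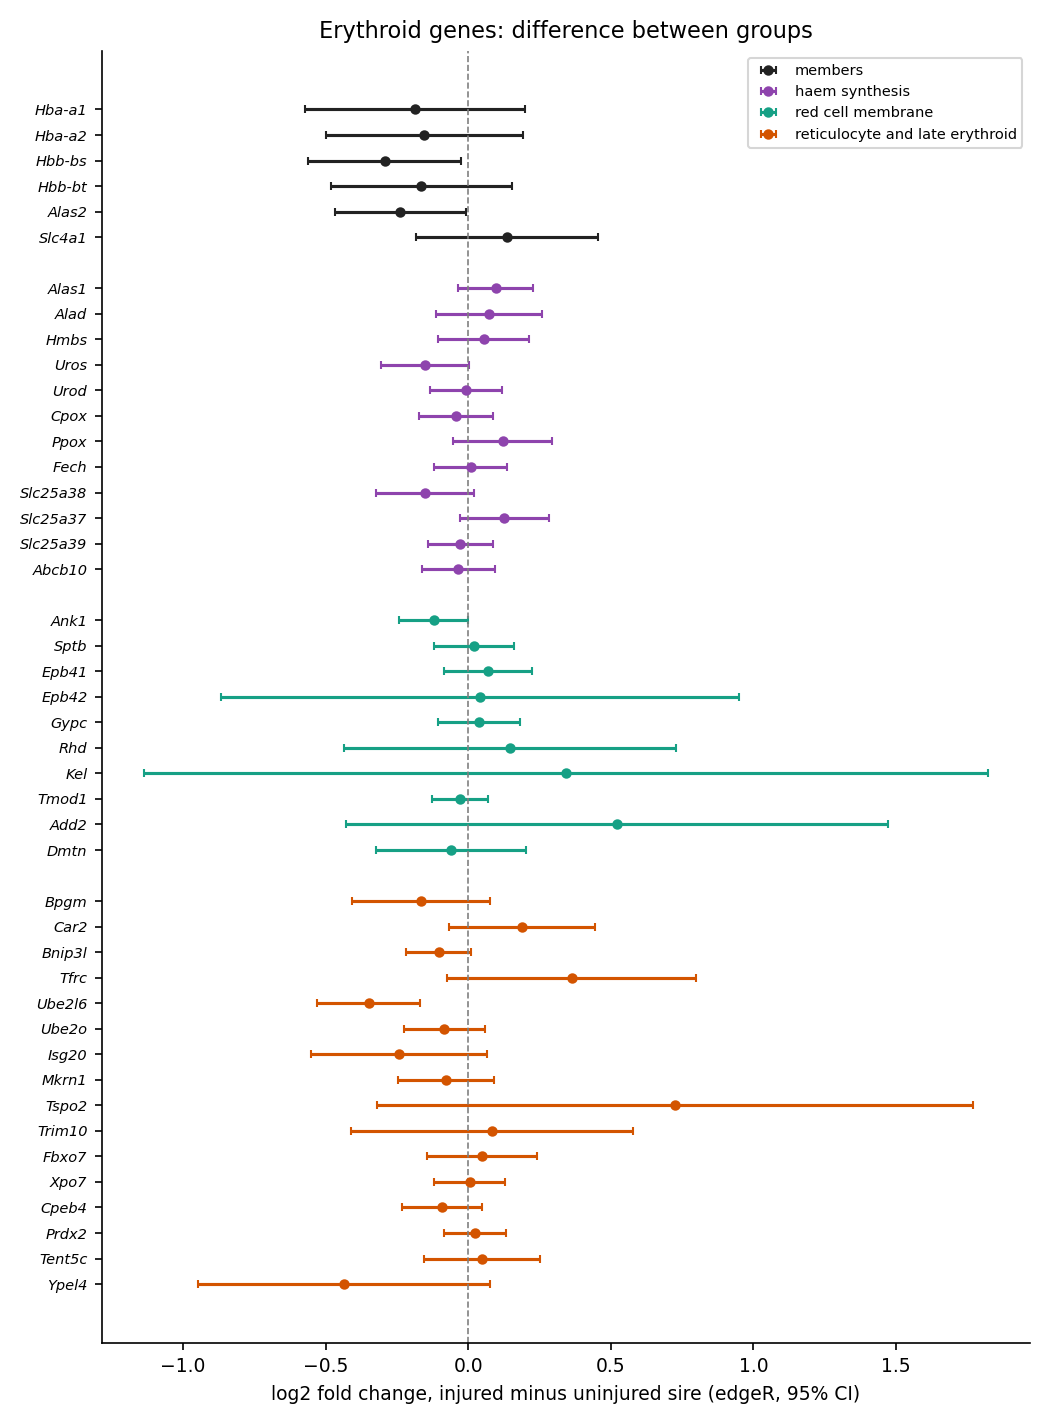
Log2 fold change between offspring of injured and uninjured males (horizontal axis, points, with 95% confidence intervals from edgeR) for the 6 genes and for tested genes of the haem, membrane and late red cell lists. The intervals of Hbb-bs, Alas2, Ank1 and Ube2l6 lie below 0 without adjustment, and no gene shown passed after adjustment over 17130 genes.

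Ranked by Pearson's r with Hbb-bs over 11 libraries, among 13921 genes with an average of at least 0 log2 CPM and leaving out the 6, the first 10 included Phospho2 (r = 0.90), Cryz (0.88), Sec14l5 (0.88), Nkiras2 (0.87), Szrd1 (0.87), Ube2l6 (0.87), Tmem126a (0.86), ENSMUSG00000121345 (0.86) and Bpgm (0.86). With the 6 included, Alas2 would have stood at 1, Hbb-bt at 3, Hba-a2 at 249, Slc4a1 at 2979 and Hba-a1 at 3084. Being the highest of many, these values are a description only. With all 12 libraries 8 of the 10 were among the first 10, and in the uninjured-sire libraries alone 1 was. There Bpgm had r = 0.98, Ube2l6 0.96, Phospho2 0.85, Nkiras2 0.81, Szrd1 0.75, Cryz 0.71, Tmem126a 0.69, Sec14l5 0.64 and ENSMUSG00000121345 0.62. Of the late red cell list 17 genes were ranked, 13 with r above 0 and 4 below, with a median of 0.27, against a median of 0.0005 over all ranked genes. They ran from Ube2l6, Bpgm and Isg20 (0.83) at the top to Xpo7 (-0.19), Tfrc (-0.46) and Fbxo7 (-0.51) at the bottom, named because of their values. The haem list had 6 above 0 and 6 below (median 0.08), the membrane list 6 and 4 (median 0.19) and the regulators 4 and 0 (median 0.45).

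A further 15 relations of Hbb-bs, chosen with earlier values in view, were set against genes of other cells and against library measures. Bpgm was one of them, and since it also stands among the 10 genes most like Hbb-bs its r of 0.86 is given as a description, with 0.84 without the 2 farthest libraries. The number of genes with at least 1 count also moved with Hbb-bs (r = 0.78, permutation p = 0.00497, adjusted p = 0.037; rho = 0.72, adjusted p = 0.0616), as did Mb (r = 0.74, permutation p = 0.0074, adjusted p = 0.037; rho = 0.73, adjusted p = 0.0616). Without the 2 farthest libraries these were 0.54 and 0.55 (permutation p = 0.135 and 0.127, n = 9), so neither passed without those libraries, injured-sire replicate 12 and uninjured-sire replicate 21. Over deviations from the group means they were 0.63 and 0.58. The number of genes with a count also differed by group, at 21990 to 24146 in the injured-sire and 23711 to 26788 in the uninjured-sire libraries. The part of these measures in the levels of Hbb-bs was not tested. Total counts (r = 0.14, rho = 0.31), S100a8 of neutrophils (0.23, rho = 0.14), Pf4 of platelets (0.10, rho = -0.06), Cd79a of B cells (0.18, rho = 0.02) and Scgb1a1 of airway (-0.04, rho = 0.17) did not pass (permutation, adjusted p = 0.892 to 0.911 for r and 0.849 to 0.968 for rho). Hmox1, Myh6, Pecam1 and the mitochondrial share did not pass either (permutation, adjusted p = 0.349 to 0.892 for r and 0.439 to 0.849 for rho). Without the 2 farthest libraries the r of Hmox1 went from 0.32 to 0.75 (permutation p = 0.0208, n = 9, not adjusted) and that of the mitochondrial share from 0.07 to 0.71 (permutation p = 0.0266, n = 9, not adjusted).

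**Figure D5:**
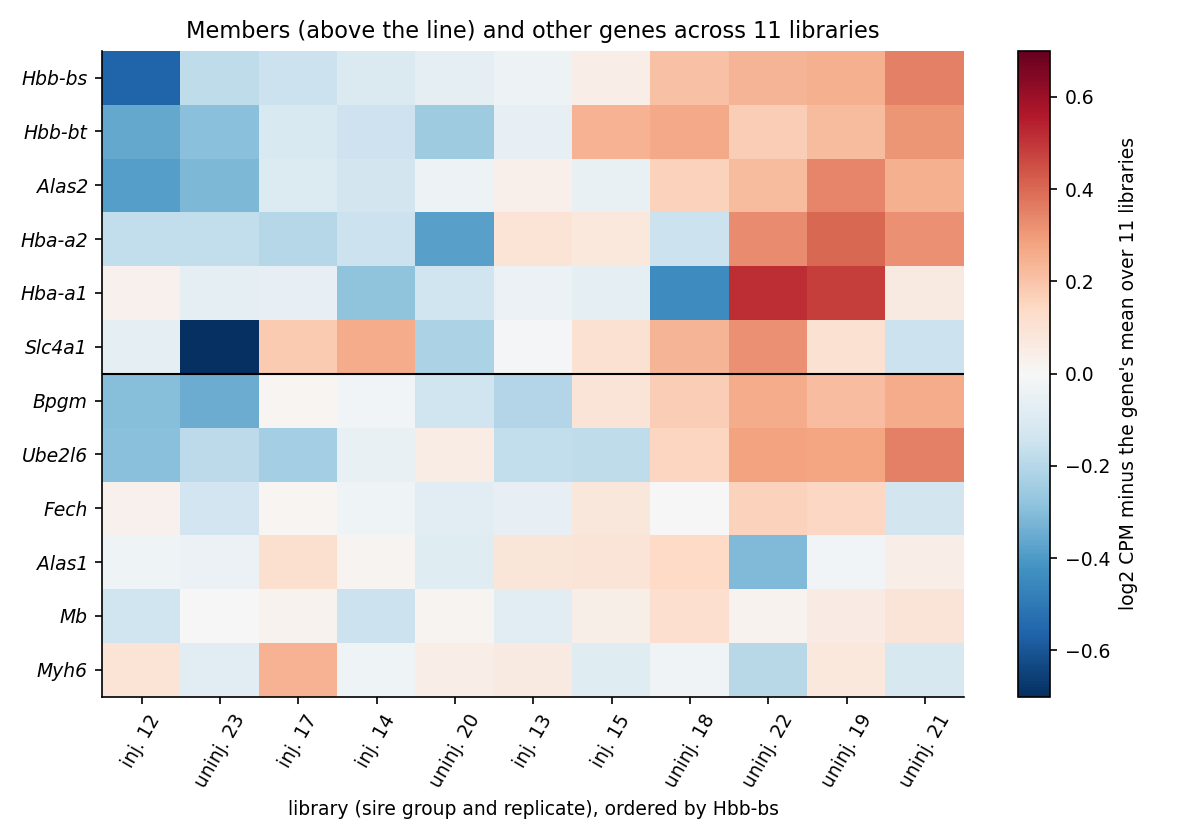
Log2 CPM minus each gene's mean over the 11 libraries (colour), for the 6 genes above the line and 6 others below it, with libraries (columns) ordered by Hbb-bs. Hbb-bt, Alas2, Bpgm and Ube2l6 run from low to high in nearly the same order, from injured-sire replicate 12 to uninjured-sire replicate 21, while Alas1 and Myh6 do not.

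Genes that clear haem and haemoglobin were tested in 12 of 13 cases, 4 higher and 8 lower, with a median of -0.04. edgeR called 0, with 1 at an unadjusted p below 0.05, the iron exporter gene Slc40a1 with means of 25.0 ± 2.29 (SD, n = 5) and 29.4 ± 1.97 CPM (SD, n = 6), a log2 difference of -0.23 ± 0.0757 (SE) at an edgeR adjusted p of 0.298. Hmox1, the inducible haem oxygenase, stood at 8.11 ± 0.774 against 11.8 ± 5.16 CPM (log2 fold change -0.54 ± 0.272, SE, edgeR adjusted p = 0.602). The ferritin gene Fth1 stood at 1297 ± 88.8 against 1347 ± 81.4 CPM. Of the globins outside red cells 3 of 4 were tested, 2 higher and 1 lower with a median of 0.04: Mb, the myoglobin of heart muscle, at 7441 ± 466 against 8030 ± 258 CPM (log2 fold change -0.11 ± 0.0487, SE, edgeR adjusted p = 0.502), Cygb at 75.4 against 73.6 CPM and Adgb at 0.948 against 0.331 CPM.

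Markers of other blood cells were given the same test, and edgeR called none, with 1 at an unadjusted p below 0.05, in the neutrophil list. Platelet markers were tested in 4 of 12 cases, 3 higher and 1 lower, with summed levels of 9.11 to 12.7 CPM in the injured-sire and 9.15 to 13.6 CPM in the uninjured-sire libraries, and Gp1bb was at 0 throughout. Neutrophil markers were higher in 10 of 10 tested of 11 (median 0.53), with summed levels of 16.3 to 68.0 against 7.49 to 41.5 CPM. In some libraries much of this sum was Ltf, at 38.3 CPM in injured-sire replicate 15 and 19.7 CPM in uninjured-sire replicate 18. There S100a8 had 5.44 and 1.02 CPM, and the airway gene Scgb1a1 251 and 159 CPM. In uninjured-sire replicate 22 S100a8 had 7.77, Ltf 0.927 and Scgb1a1 1.55 CPM. The sums are thus not a measure of neutrophils alone, and the source of Ltf was not tested. B and T cell markers were lower in 10 of 10 (median -0.41), at summed levels of 19.4 to 45.0 against 13.4 to 83.9 CPM. The median library sum went the other way, at 29.2 CPM in the injured-sire and 21.5 CPM in the uninjured-sire libraries. Liver-made plasma protein genes were higher in 4 of 4 tested of 8 (median 0.35), at 18.7 to 35.5 against 16.6 to 34.6 CPM. Most of these sums was Ahsg, at 15.4 to 25.3 CPM over the 12 libraries, while Alb ran from 0 to 7.91 CPM. The fitted differences of the neutrophil list thus had the opposite sign to those of the globins. Those of the B and T cell list had the same sign, but its median library sums did not. The part of these cells in the globin values was not tested.

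The tissue label was checked with heart muscle genes: 10 of 10 were tested, 4 higher and 6 lower (median -0.02), with summed levels of 89858 to 102843 CPM against 85414 to 98058 CPM, so the libraries hold the muscle that the label names. Endothelial markers were higher in 6 of 10 (median 0.01), at 2322 to 2565 against 2077 to 2517 CPM. Airway genes, foreign to ventricle, were higher in 7 of 7 tested of 9 (median 1.31), with summed levels of 38.3 to 627 CPM in the injured-sire libraries, 0.862 to 384 CPM in the uninjured-sire libraries and 0.995 CPM in replicate 16. edgeR called none of these heart, endothelial and airway genes, with 1 endothelial gene at an unadjusted p below 0.05, and the part of airway RNA in the globin values was not tested. Totals ran from 30537315 to 42090257 counts per library. At these depths every globin had at least 8427 counts per library, and counting noise is small beside the spread between animals.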

How the data were processed

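The deposited table holds raw read counts per Ensembl gene, made with featureCounts 2.1.1, strand setting 2, without the paired-end or multi-mapping options, and, per the file headers, on Ensembl release 114 of GRCm39. Tools named in the submitters' processing notes are STAR 2.7.10a, Subread 2.0.3, Salmon 1.9.0 and DESeq2 1.44.0, without roles. Another 11 sample columns were not used. Symbols were matched for 51487 of 78317 gene IDs (99.3% of counts).

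Replicate numbers come from the titles. Injured-sire replicate 16 was left out, giving 5 against 6 libraries. edgeR 4.0.16 in R 4.3.3 was used after filterByExpr at a minimum count of 10 and a minimum total of 15. Libraries were scaled by TMM, and the two-sided, robust quasi-likelihood F test was adjusted by Benjamini-Hochberg over 17130 genes, with a threshold of 0.05. CPM are counts scaled to 1e6 per library after TMM. Correlations used log2 CPM with a prior count of 2 and two-sided tests of 100000 permutations (scipy 1.17.1). The F statistic gave the SEs and the 95% confidence intervals. The steps were tested on simulated counts. Alternatives included all 12 libraries, each library left out, other scalings and filters, a sex-linked covariate, the DESeq2 1.42.0 Wald test and limma 3.58.1 voom. Genes named were the 6, the 3 members of a list with the smallest p, 8 reference genes and the 10 most like Hbb-bs, and others were named after their values were seen. The members and lists were chosen with earlier results of these data known. Transcript and promoter sequences come from GENCODE M21 and RefSeq, both on GRCm38, and were used for sequence only. Values of some genes that these choices took are left out of the text.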

Additional observations from a re-analysis of the deposited data

How the results depend on the processing

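Across 22 alternatives per gene, 131 of 132 fits kept the direction and the side of the threshold. The exception was Alas2 with no filter on low counts, where it passed (log2 fold change -0.26, edgeR adjusted p = 0.0156) and the number of the 6 genes called went from 0 to 1; the cause was not tested. Over these alternatives the adjusted p of Alas2 ran from 0.0156 to 0.681 and that of Hbb-bs from 0.318 to 0.666. Leaving out 1 library moved the log2 fold change of Hbb-bs between -0.35 and -0.21, Alas2 between -0.31 and -0.18, Hba-a1 between -0.28 and -0.09, Hba-a2 between -0.23 and -0.08, Hbb-bt between -0.26 and -0.10 and Slc4a1 between 0.03 and 0.22. The r of Hba-a1 with Hbb-bs ran from 0.14 to 0.51 in this way and passed in none. The r of Hbb-bs with Alas2 (0.92 to 0.96) and with Hbb-bt (0.87 to 0.92), alternatives chosen after seeing the data, passed in all. Of all genes, 18 were called in the comparison, 8 to 43 with 1 library left out (28, 8 and 9 without replicates 12, 13 and 14 of the injured-sire group, 43 and 9 without replicates 22 and 23 of the other), 134 by the DESeq2 Wald test, 236 with no filter, 28 with 1 CPM in 5 libraries and 49 at an adjusted p below 0.1. No paired analysis was possible because the groups share no replicate number. Every globin had at least 8427 counts per library, and how many multi-mapping globin reads went uncounted was not measured.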
